A study of Mus musculus with 11 samples.

Results

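Mouse OT-I CD8+ T cells stimulated with their peptide were compared with naive OT-I cells, gene by gene and transcript by transcript. The comparison rested on 8 of the 11 libraries of the series, chosen by their labelled treatment. The 4 naive libraries came from cells left without treatment, and the 4 stimulated libraries from cells that received the vehicle DMSO together with the N4 peptide, both at 12 h. All libraries shared the OT-I genotype, in which a transgene gives T cells a receptor that recognises a peptide of ovalbumin, and the source named as CD8+ T cells. The other 3 libraries, treated with the mTOR inhibitor Torin and N4, entered the fit through the filter of genes, the scaling and the shared estimate of spread. With only the 8 libraries, 19814 genes were tested, of which 4338 were higher and 4190 lower. Because the naive cells received neither DMSO nor peptide, effects of the vehicle and of the peptide cannot be told apart.

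After 12 h with peptide, 4272 of the 22238 genes tested (19.2%) were higher and 4501 (20.2%) were lower. Among the clearest rises were genes for mitochondrial import and respiration (Tomm5, Timm17a, Uqcrq), the amino acid transporter Slc7a5, the chaperones Hspe1 and Hsph1 and the RNA polymerase subunit Polr2h, each 4-fold or more. Among the clearest falls were the immunoproteasome subunit Psmb8, the nuclear noncoding RNA Malat1, the inflammasome adaptor Pycard and the fructose-phosphorylating enzyme Khk, also 4-fold or more each. With composition scaling, genes of tRNA modification and of the RNA exosome, cap and polyadenylation were mostly higher. Receptors coupled to G proteins, cyclic nucleotide enzymes, histone methylation enzymes and peptide-loading genes fell more often than they rose. In 1142 genes the balance between transcripts changed.

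A naive CD8 T cell is small, circulates between blood and lymph nodes, and makes little RNA and protein. When its receptor binds a peptide held by an MHC class I molecule, calcium, kinase and NF-kappaB signals start a transcriptional programme, and over the following hours the cell enlarges, raises protein synthesis and prepares to divide. In the same period it loses receptors that keep naive cells circulating. The comparison addresses which RNAs differ between these states.

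The libraries held between 241865667 and 347851527 estimated counts each. These are estimates from coverage rather than numbers of reads, so no counting interval is given and the precision comes from the spread between libraries. The labels do not say that replicates came from separate mice, so p-values measure the spread between these libraries, which may be technical. Levels are given as CPM, counts scaled to a common library size with TMM composition scaling. This scaling is not per length, so levels are compared within a gene only. CPM is relative to the other RNA of a library, with either scaling. A rise or fall is therefore relative too, and amounts of RNA per cell cannot be read from it. Of 15 CD8 T cell markers, all were detected in both groups, with summed levels of 10800 to 17600 CPM in naive and 7550 to 12100 CPM in stimulated libraries. Cd8a was called neither way (196 CPM before and 187 CPM after stimulation), while Cd8b1 (log2 change -1.22), Cd3e (-0.88), Cd3d (-1.48) and Cd3g (-1.84) fell and Cd5 (1.92) and Zap70 (1.23) rose, making 2 of 15 higher and 8 lower, against 19.2% and 20.2% of all genes. In such bulk libraries, fewer cells of a type and less RNA per cell cannot be told apart.

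Several libraries stood apart in markers of other cells. The summed level of 12 B cell markers was 48100 CPM in naive 4 and 14500 CPM in stimulated 4, against 371 CPM or less in the other 6. In naive 4, Cd79a (66.7 CPM), Cd79b (25.9 CPM) and Ighm (359 CPM) were a small part of the sum, so other members of the list held most of it. Ighm was at 331 CPM in naive 1. For 14 granulocyte markers it was 8680 CPM in naive 2 and 2080 CPM in stimulated 2, against 191 CPM or less elsewhere. For 14 monocyte and macrophage markers, naive 2 reached 2180 CPM, and the other naive libraries 134 to 230 CPM. The stimulated libraries ranged from 9.84 to 98.1 CPM. None of the 12 B cell, 14 granulocyte, 14 monocyte, 12 dendritic cell, 13 erythroid and platelet, 10 NK and gamma-delta or 7 stromal markers was higher after stimulation, and 3, 3, 6, 4, 4, 2 and 2 were lower, respectively. Set against the 20.2% of all genes that were lower, the shares of the B cell (25.0%), granulocyte (21.4%) and NK and gamma-delta (20%) markers were near the background. With the replicate number as a block, 12 of the 14 granulocyte markers and 6 of the 10 NK and gamma-delta markers were lower. Without naive 2, 1 granulocyte and 3 monocyte markers were lower, and without stimulated 2, 11 granulocyte markers were. For dendritic cell markers the count ran from 0 to 4 as single libraries were left out. Of 6 CD4 and regulatory T cell markers that passed the filter, Il2ra and Cd40lg rose, Foxp3 was at 0.6 CPM in both groups, and Cd4 did not pass. The part of such cells in the results was not tested. Without number 2 the comparison called 3653 genes higher and 3716 lower, and without number 4 it called 3666 and 3236.

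Of all genes tested, 39.5% were called, 19.2% higher and 20.2% lower, by edgeR's quasi-likelihood test with Benjamini-Hochberg adjustment at 0.05. At 2-fold or more, 3176 genes were higher and 3602 lower, and at 8-fold or more 499 and 929. At 32-fold or more the counts were 182 and 373. The other 13465 genes were not called. The median log2 change over all tested genes was -0.22, and -0.71 with library totals as the only scaling, under which 2600 genes were higher and 6529 lower. Higher genes then made up 28.5% of the calls, against 48.7%. No called gene reversed its call between these scalings, although 82 of the higher genes had a log2 change below 0 with totals. In 9228 genes (41.5% of those tested) the 4 naive and 4 stimulated libraries did not overlap, and 7881 of these were called.

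**Figure D1:**
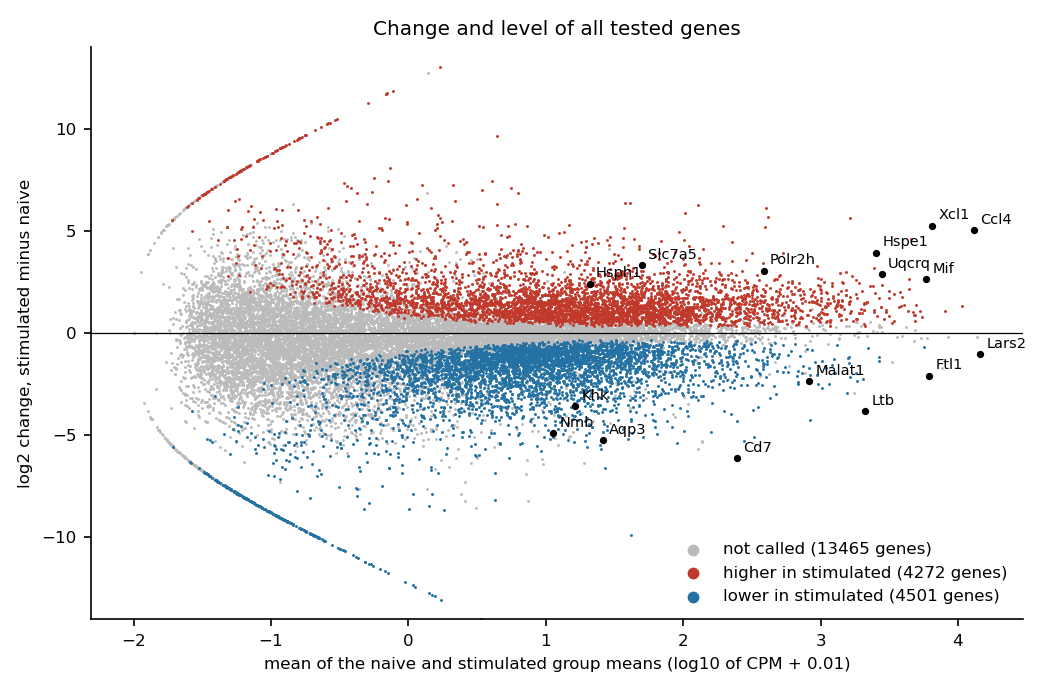
Log2 change of each tested gene, stimulated minus naive (vertical axis), against the log10 of its mean level in CPM plus 0.01 (horizontal axis). Red points are the 4272 genes called higher, blue points the 4501 called lower and grey points the 13465 not called. The curved edges at the left are genes at 0 in every library of a group, whose fitted changes depend on a prior count. Named rises sit at high levels, such as Ccl4 and Mif, and at lower ones, such as Hsph1 and Slc7a5. Named falls run from Lars2 and Ftl1 at high levels to Nmb and Khk at low ones.

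The replicate numbers paired the libraries. For numbers 1 to 4, the deviations of naive and stimulated libraries from their group means correlated across genes at 0.368, 0.422, 0.286 and 0.438. Between libraries of different numbers, the same correlation ran from -0.22 to 0.10. Of the 8773 called genes, 8487 (96.7%) moved in the called direction in all 4 numbers, 273 in 3 and 13 in 2. The genes were called in these same libraries, so this agreement and the medians that follow are largely set by the calls. Over all genes tested, changes within a number correlated at 0.867 to 0.889 with the mean changes of the other numbers. The median log2 change of the called higher genes was 1.04, 1.07, 1.27 and 1.24 in numbers 1 to 4, and that of the lower genes -1.21, -1.21, -1.35 and -1.28. With the number as a block, 8223 genes were called in both fits, all in the same direction. Another 940 genes were called only with the block, 626 of them lower, and 550 only without it. Granulocyte and B cell genes were among those called only with the block, including S100a9, Ngp, Retnlg and Cd79a.

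Uqcrq, a subunit of respiratory complex III, was measured at 668, 813, 624 and 571 CPM in naive libraries 1 to 4 and at 4031, 4888, 6262 and 4455 CPM in the stimulated libraries. All stimulated values lay above all naive ones. The log2 change was 2.88 (SE 0.17, adjusted p = 6.09e-06). Tomm5, part of the outer-membrane translocase that admits proteins into mitochondria, rose from 257 ± 42.0 to 1671 ± 199 CPM (SD, n = 4 each), a log2 change of 2.7. Timm17a, a channel subunit of the inner membrane, rose from 152 ± 20.6 to 704 ± 56.4 CPM. Both had the same adjusted p of 6.09e-06 as Uqcrq, the smallest in the table.

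Slc7a5, the large chain of the transporter for leucine and other large neutral amino acids, stood at 11.7, 8.39, 8.14 and 7.82 CPM in the naive libraries, against 110, 97.5, 92.2 and 63.9 CPM in the stimulated ones. The groups were far apart, with number 1 highest in both. Its log2 change was 3.33 (SE 0.20). Slc7a3, a transporter of cationic amino acids, went from 2.42, 0.174, 0 and 0.361 CPM to 26.9, 43.6, 20.4 and 23.9 CPM, so it was nearly absent in naive 3 and clearly measured after stimulation (adjusted p = 0.00627). Ptrh2, a mitochondrial peptidyl-tRNA hydrolase, rose from 54.6 ± 9.08 to 328 ± 15.1 CPM. Gpr65, a proton-sensing receptor, was an exception among G-protein-coupled receptors and rose from 15.96 ± 2.51 to 93.3 ± 6.84 CPM.

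Hspe1, the small partner of the mitochondrial chaperonin, was at 471, 400, 190 and 186 CPM in the naive libraries, against 3899, 4875, 5163 and 5238 CPM in the stimulated ones. Naive 1 and 2 were above naive 3 and 4, and all were far below the stimulated values, for a log2 change of 3.94 (SE 0.33, adjusted p = 1.12e-05). Hsph1, a nucleotide exchange factor for HSP70 chaperones, rose from 6.596 ± 0.794 to 35.2 ± 3.34 CPM. Polr2h, a subunit shared by the nuclear RNA polymerases, rose from 82.9 ± 16.9 to 691 ± 50.02 CPM, a log2 change of 3.06. The annotated models of Hspe1 and Polr2h overlap genes of the opposite strand, Hspd1 and Clcn2, and use of strand in counting was not stated, so reads of such partners cannot be told apart. The same holds for these genes named here, each given with its opposite-strand partner: Selenop (Ccdc152), Cd52 (Crybg2), B2m (Patl2), Mettl1 (Eef1akmt3), Nsun6 (Arl5b), Dis3 (Pibf1), Slc19a1 (Col18a1), Il16 (Stard5), Med21 (Tm7sf3), Kif2a (Dimt1), Acp1 (Alkal2), Apex1 (Pip4p1), Thra (Nr1d1), Ruvbl2 (Gys1), Kat8 (Prss8), Dock2 (Fam196b), Actn4 (Capn12), Gnpnat1 (Styx) and Rab37 (Cd300lf). Their values are uncertain for that reason, as are those of Tapbp and Exoc2, which overlap Zbtb22 and Hus1b on their own strand. Slc7a5, Gpr65, Psmb8, Malat1 and Pycard overlap predicted entries of the opposite strand. Pigf, an enzyme of the GPI anchor pathway, rose from 30.7 ± 0.768 to 146 ± 17.4 CPM and overlaps Rhoq in the same way. Sssca1 rose from 4.72 to 39.6 CPM, but a second, overlapping gene entry carries the same symbol, so its value is uncertain.

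Promoters of some of these genes are shown because the genes moved strongly and hold the letters of at least 1 of the short motifs searched. Each sequence is the RefSeq window of 300 bases on GRCm38.p6, 250 before the annotated start, 5′ to 3′ on the gene's strand. Capitals mark the letters of 10 of the 12 motifs searched on both strands; the GC box GGGCGG and CCAAT, which many windows hold, are not marked. In order, the windows are chr1:55087898-55088197 (plus strand, Hspe1), chr11:86683824-86684123 (plus, Ptrh2), chr16:20717576-20717875 (plus, Polr2h), chr5:30921309-30921608 (plus, Khk), chr11:4257318-4257617 (plus, Lif) and chr17:35194257-35194556 (plus, Ltb).
Hspe1: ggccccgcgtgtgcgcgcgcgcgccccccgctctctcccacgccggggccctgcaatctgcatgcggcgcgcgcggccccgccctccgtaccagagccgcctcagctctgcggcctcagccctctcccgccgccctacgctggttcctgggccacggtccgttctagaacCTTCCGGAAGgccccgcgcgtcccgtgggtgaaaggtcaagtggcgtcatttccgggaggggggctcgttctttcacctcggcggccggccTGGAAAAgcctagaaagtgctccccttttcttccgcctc
Ptrh2: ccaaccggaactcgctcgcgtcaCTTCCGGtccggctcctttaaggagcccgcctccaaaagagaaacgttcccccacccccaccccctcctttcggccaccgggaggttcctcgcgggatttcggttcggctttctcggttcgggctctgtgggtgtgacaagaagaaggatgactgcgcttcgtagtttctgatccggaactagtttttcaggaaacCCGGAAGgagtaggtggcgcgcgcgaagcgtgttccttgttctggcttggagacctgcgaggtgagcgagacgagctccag
Polr2h: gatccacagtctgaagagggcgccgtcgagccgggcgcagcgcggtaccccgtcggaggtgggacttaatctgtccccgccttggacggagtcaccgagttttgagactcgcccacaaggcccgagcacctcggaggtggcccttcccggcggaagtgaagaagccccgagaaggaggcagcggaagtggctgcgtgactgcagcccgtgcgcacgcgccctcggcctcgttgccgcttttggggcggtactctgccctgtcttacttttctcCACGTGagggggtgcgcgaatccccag
Khk: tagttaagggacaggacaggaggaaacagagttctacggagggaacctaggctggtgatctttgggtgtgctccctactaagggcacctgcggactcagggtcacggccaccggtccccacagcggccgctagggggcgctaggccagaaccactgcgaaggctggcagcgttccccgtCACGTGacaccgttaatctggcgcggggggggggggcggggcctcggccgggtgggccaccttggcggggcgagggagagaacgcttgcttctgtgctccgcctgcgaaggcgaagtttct
Lif: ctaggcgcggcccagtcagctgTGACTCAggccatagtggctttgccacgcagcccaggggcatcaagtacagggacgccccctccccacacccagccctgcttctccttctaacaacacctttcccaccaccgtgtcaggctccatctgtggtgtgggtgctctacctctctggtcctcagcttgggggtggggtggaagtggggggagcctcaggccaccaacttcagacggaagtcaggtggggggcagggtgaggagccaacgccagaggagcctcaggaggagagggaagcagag
Ltb: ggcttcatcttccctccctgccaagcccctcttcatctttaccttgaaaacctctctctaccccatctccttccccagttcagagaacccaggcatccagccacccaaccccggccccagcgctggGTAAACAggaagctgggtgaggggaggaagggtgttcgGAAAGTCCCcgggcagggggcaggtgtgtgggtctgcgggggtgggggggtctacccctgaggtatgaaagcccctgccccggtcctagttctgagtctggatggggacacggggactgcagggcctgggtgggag

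The Hspe1 window holds overlapping ETS letters (CCGGAAG) on both strands at -80 to -71 and the NFAT core TGGAAAA at 11 to 17, counted with the start site as 0. The Ptrh2 window holds ETS letters at -227 to -221 and at -31 to -25. The E-box CACGTG lies at 23 to 28 in Polr2h, which rose, and at -71 to -66 in Khk, which fell. The AP-1 letters TGAGTCA stand at -228 to -222, in reverse, in the window of Lif, a cytokine of the interleukin-6 family. The Ltb window, of a gene that fell, has the FOXO letters TGTTTAC at -124 to -118 and the degenerate NF-kappaB letters GGGANTTTC at -86 to -78, both in reverse. A match describes letters and is not a binding site.

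Over 13737 promoters of 10799 tested genes, 15.9% held the ETS letters. The share was 22.4% in 1753 promoters of genes called higher by 2-fold or more and 10.8% in 2901 promoters of genes called lower by as much. For the E-box the shares were 9.49% of all, 13.5% of higher and 8.48% of lower promoters. FOXO letters went the other way, with 2.66%, 1.77% and 3.62%. The CRE letters TGACGTCA were in 2.92%, 3.88% and 1.9%, and the NRF1 core GCGCATGC in 4.81%, 5.88% and 3.31%. AP-1 letters were about equally frequent (3.95%, 3.88% and 3.76%), but stood in 8.26% of the 218 promoters of genes at least 8-fold higher, and TATAAA, at 7.83%, 7.42% and 7.41%, stood in 11.9% of these. The ETS letters were in 5.50% of those 218. Of the 596 promoters of genes at least 8-fold lower, 5.37% held the ETS letters, 9.23% TATAAA and 4.19% the AP-1 letters. The low share of ETS letters was thus common to strong rises and strong falls. The shares of the other motifs were, in the same order, those of the NFAT core (4.69%, 5.02% and 4.48%), GGGANTTTC (1.04%, 0.913% and 1.0%), the GC box GGGCGG (59.0%, 61.3% and 59.6%), CCAAT (37.4%, 39.8% and 37.4%) and TGATGNAAT, a composite of ATF4 (0.473%, 0.570% and 0.241%). Mean GC content was 59.9%, 60.2% and 60.1%. Genes with several windows count more than once, and the differences were not tested.

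Psmb8, the chymotrypsin-like subunit of the immunoproteasome, was at 1305, 1313, 1402 and 1348 CPM in the naive libraries, against 360, 296, 324 and 318 CPM in the stimulated ones. The values were close together within each group and did not overlap, with a log2 change of -2.05 (SE 0.11, adjusted p = 6.09e-06). Malat1 stood at 1487, 1376, 1344 and 1326 CPM and then at 296, 293, 223 and 267 CPM. Each stimulated library lay below every naive one, and the log2 change was -2.36 (SE 0.14). Nsd3, a histone H3 methyltransferase, went from 50.4 ± 8.10 to 9.77 ± 0.499 CPM and Pycard from 93.4 ± 8.20 to 9.53 ± 0.411 CPM. Cox7a2l, which joins respiratory complexes into larger assemblies, fell from 307 ± 29.5 to 66.3 ± 8.17 CPM, the reverse of most nuclear genes of the respiratory chain.

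Khk fell from 30.3 ± 4.24 to 2.57 ± 0.543 CPM, a log2 change of -3.56. Rcsd1, a regulator of actin capping, fell from 36.6 ± 4.6 to 3.46 ± 0.926 CPM. Ppp1r18, a phosphatase-targeting subunit linked to actin, fell from 444 ± 63.2 to 96.3 ± 5.32 CPM. Gmfg, which promotes debranching of actin filaments, fell by 3.60 on the log2 scale and Emc9, of the ER membrane insertion complex, by 3.96, but their models overlap Samd4b and Psme1 on the opposite strand. Nmb, the neuromedin B precursor, was measured at 14.5, 14.6, 28.4 and 30.2 CPM in the naive libraries, against 0.934, 0.479, 0.649 and 0.881 CPM in the stimulated ones. It alone was at 10 CPM or more in each naive and under 1 CPM in each stimulated library, though its model overlaps Sec11a, and no gene met the reverse rule.

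Some of the largest falls were in genes well measured in every naive library. Aqp3, a channel for water and glycerol, went from 54.6, 51.5, 45.1 and 51.4 CPM to 3.80, 0.994, 0.159 and 0.389 CPM. Stimulated 1 kept the most, and the groups did not overlap (log2 change -5.24, SE 0.88, adjusted p = 0.000676). Falls of similar size were called for Fxyd7, a regulator of the sodium pump (log2 change -5.48), Smpdl3a, a phosphodiesterase related to sphingomyelinase (-5.34), Selenop, the selenium carrier (-5.21), and Actn2, an actin crosslinker (-5.2). S1pr1, the receptor for exit from lymph nodes, was at 264, 154, 190 and 174 CPM and then at 22.7, 2.45, 2.004 and 0.984 CPM, again with the highest remainder in stimulated 1. Among the largest rises, Ncs1, a neuronal calcium sensor, went from 0.511, 0.649, 0.329 and 0 CPM to 9.25, 20.5, 14.7 and 12.5 CPM, and Lif from 0.867, 0.239, 0 and 0.0344 CPM to 10.7, 16.8, 9.88 and 9.61 CPM. Naive 1 and 2 were the highest naive libraries for Lif, as they were for the chemokines Ccl4, Xcl1 and Ccl3.

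**Figure D2:**
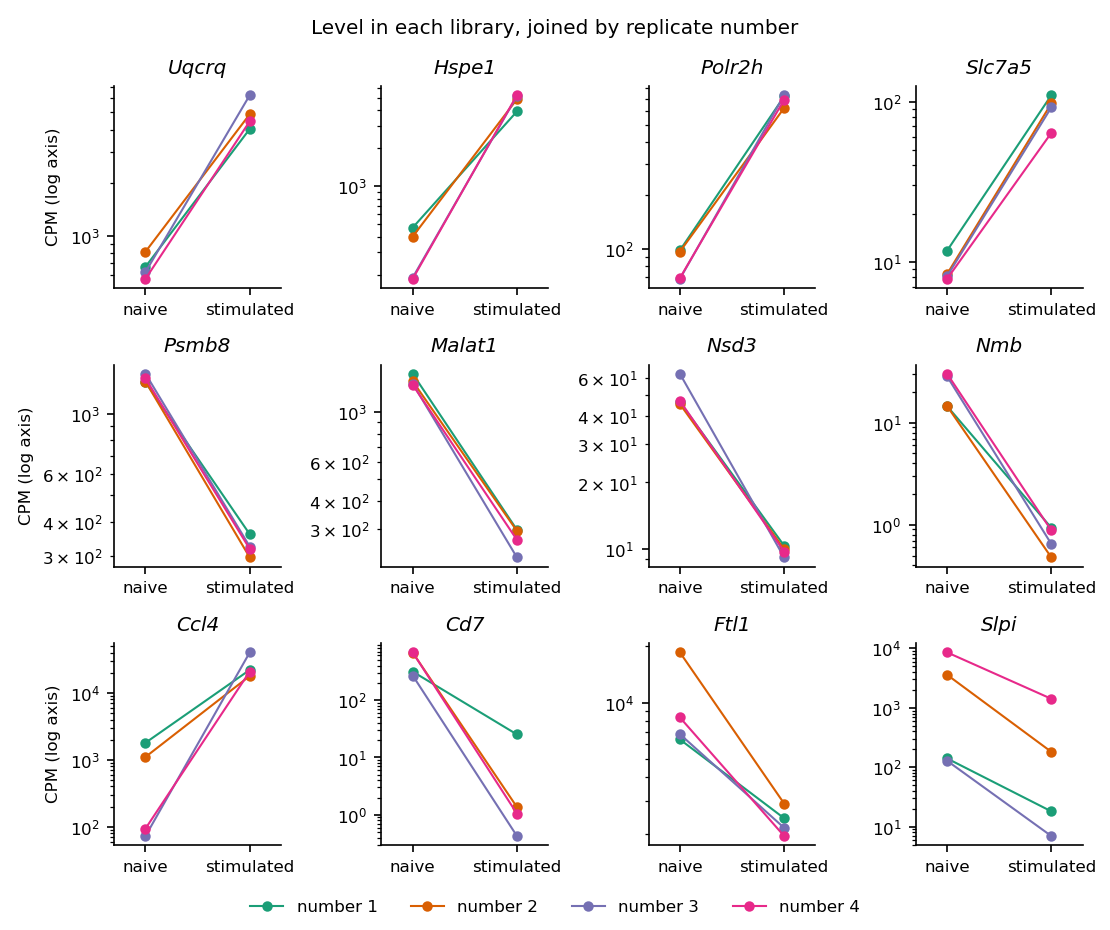
Level of 12 genes in CPM on log axes in the 4 naive and 4 stimulated libraries, with lines joining libraries of the same number. In the upper row all stimulated libraries lie above the naive ones, and in the middle row all lie below; Ccl4 is higher in naive 1 and 2 than in naive 3 and 4, Cd7 is higher in stimulated 1 than in the other stimulated libraries, and Slpi differs more between numbers than between groups.

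By share of all counts, the composition of the RNA moved through a few abundant genes. Ccl4, a chemokine, took 0.243, 0.125, 0.00876 and 0.0107% of counts in naive and 2.13, 1.58, 2.95 and 1.86% in stimulated libraries. Mif, a secreted cytokine and tautomerase, rose from 0.196% on average to 0.863%, Ppia, a prolyl isomerase, from 0.726% to 1.3% and Rpl38, of the large ribosomal subunit, from 0.144% to 0.643%. Nkg7, a granule membrane protein, rose from 0.192% to 0.610% and Eif5a, the hypusine-bearing translation factor, from 0.185% to 0.523%. All of these passed the test in CPM, at log2 changes from 1.33 (Ppia) to 5.05 (Ccl4).

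The largest losses of CPM were led by Lars2, the mitochondrial leucyl-tRNA synthetase, at 2.35% of counts in naive and 0.818% in stimulated cells (log2 change -1.03, adjusted p = 0.000906). Ftl1, the ferritin light chain, fell from 6370, 18470, 6793 and 8334 CPM to 2430, 2908, 2160 and 1955 CPM. Naive 2, the library with granulocyte and monocyte markers, was the highest, and without number 2 the log2 change was -1.72 in place of -2.08 (adjusted p = 0.0002). Fth1, the heavy chain, showed the same order, with -1.96 without number 2 and -2.36 with it. Ltb, a membrane lymphotoxin, fell from 0.475% to 0.0252% of counts, Shisa5, an ER and nuclear membrane protein, from 0.411% to 0.0615% and Cd52, a small surface glycoprotein, from 0.460% to 0.126%. Lysozyme genes Lyz1 and Lyz2, markers of monocytes, were 55.4 and 1773 CPM in naive 2 and at most 5.55 and 176 CPM in the other naive libraries, and their log2 changes without number 2 were -4.33 and -4.19 in place of -5.53 and -5.29. Tmsb4x (log2 change -0.19, adjusted p = 0.517) and B2m (-0.17, adjusted p = 0.405) were called neither way, but were called lower with library totals. Slpi, a protease inhibitor, was at 140, 3587, 128 and 8549 CPM in the naive libraries, against 18.1, 181, 6.96 and 1415 CPM in the stimulated ones. It was called only with the number as a block (log2 change -3.45, adjusted p = 0.000494).

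Described over 26 lists of genes, the response was uneven, and each count below stands against 19.2% higher and 20.2% lower of all genes, with a median log2 change of -0.22. Counts with library totals as the only scaling follow in parentheses, higher genes first, and stand against 2600 and 6529 of all genes. Of 38 tRNA modification genes, 27 rose and 2 fell (21 and 3 by totals), with a median of 1.21. Mettl1, the catalytic subunit of a tRNA guanosine methyltransferase, rose by 3.02 and Trmt61a, of the tRNA adenosine methyltransferase, by 2.71 on the log2 scale. Nsun6 (-1.34) and Osgep (-0.83) fell. Of 32 genes of the RNA exosome, cap and polyadenylation, 24 rose and 1 fell (13 and 2 by totals). The list's median was 0.96, and 0.47 with library totals. Pcf11, a termination factor, fell by 0.93. Pabpc4, a poly(A)-binding protein, rose from 5.39 ± 0.480 to 25.0 ± 2.83 CPM and Dis3, an exosome nuclease, by 2.07 on the log2 scale. Of 48 genes for vesicle coats and translocation into the ER, 29 rose and 2 fell (13 and 7 by totals), with a median of 0.56 and, with library totals, 0.08. Sec61g, of the translocon, rose by 1.97 and Sar1a, the GTPase that starts COPII coats, by 1.77, while Sec24d, a COPII cargo adaptor, fell by 2.79 and Sec11c, of the signal peptidase, by 1.20.

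Of 40 cytokine genes, 18 rose and 2 fell (15 and 3 by totals), with a median of 2.60, and 4 fell with the number as a block. Il21, a helper cytokine, was at 0.104, 0.0906, 0 and 0.0172 CPM in the naive libraries, against 1.74, 17.7, 0.615 and 7.18 CPM in the stimulated ones, so the stimulated libraries differed widely among themselves. Il16 fell from 98.3 ± 16.8 to 13.5 ± 8.58 CPM, and Gdf15 by 2.84 on the log2 scale. Of 42 members of the TNF ligand and receptor superfamily, 14 rose and 9 fell (7 and 13 by totals). Tnfrsf4, the costimulatory receptor OX40, rose from 10.1 ± 6.15 to 124 ± 38.8 CPM and Tnfsf14, the ligand LIGHT, from 1.51 ± 1.06 to 18.5 ± 4.11 CPM. Ltb and Tnfrsf26, a receptor without a death domain, fell by 3.81 and 2.76. The list's median was 0.16, and -0.31 with library totals. Of 34 nucleoside and folate genes, 15 rose and 9 fell (14 and 12 by totals). Slc19a1, the reduced folate carrier, rose by 3.37 and Nme1, a nucleoside diphosphate kinase, by 3.19, while the salvage kinases Dck and Tk2 fell by 2.93 and 2.33. The median of that list was 0.31, and -0.18 with totals.

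Of 40 Mediator and Integrator subunits, 13 rose and 2 fell (5 and 9 by totals), with a median of 0.24 that became -0.26 with totals. Med21 (1.39) and Med7 (1.20) rose, and the kinase-module subunits Med13l (-1.82) and Med12 (-0.90) fell. Of 26 tubulins and microtubule factors, 8 rose and 6 fell (4 and 13 by totals), so the balance turned with the scaling, and 9 rose and 10 fell with the number as a block. Tubb6, a beta-tubulin, rose by 3.62 and Dynll1, a dynein light chain, by 1.64, while Stmn1, which destabilises microtubules, fell by 1.45 and Kif2a, a depolymerising kinesin, by 0.86. Of 28 protein tyrosine phosphatases, 6 rose and 7 fell (2 and 9 by totals), among them Ptprs (2.05), Acp1 (1.10), Ptpre (-2.40) and Ptpra (-1.33). Of 44 genes of the DNA damage response, 8 rose and 8 fell (4 and 12 by totals), shares near those of all genes. Chek1, the replication checkpoint kinase, rose from 0.334 ± 0.161 to 5.20 ± 1.35 CPM and Apex1, an abasic-site endonuclease, by 2.75, while Parp14 and Xpc fell by 2.08 and 1.78. Of 18 V-ATPase subunits, 3 rose, including Atp6v0b (1.28) and Atp6v0e (1.06), and 4 fell, including Atp6v1d (-1.90) and Atp6v0d1 (-1.68) (2 and 9 by totals). Of 22 circadian clock genes, 5 rose and 6 fell (3 and 9 by totals). Ciart and Bhlhe40, transcriptional repressors of the clock, rose by 2.47 and 2.1. Without naive 1, stimulated 2 or naive 4, 3 clock genes were higher, and without number 2 or number 4, 3 were lower. Without number 4, 3 phosphatases, 4 DNA damage genes and 2 V-ATPase subunits were lower, and without number 1, 5 DNA damage genes were.

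**Figure D3:**
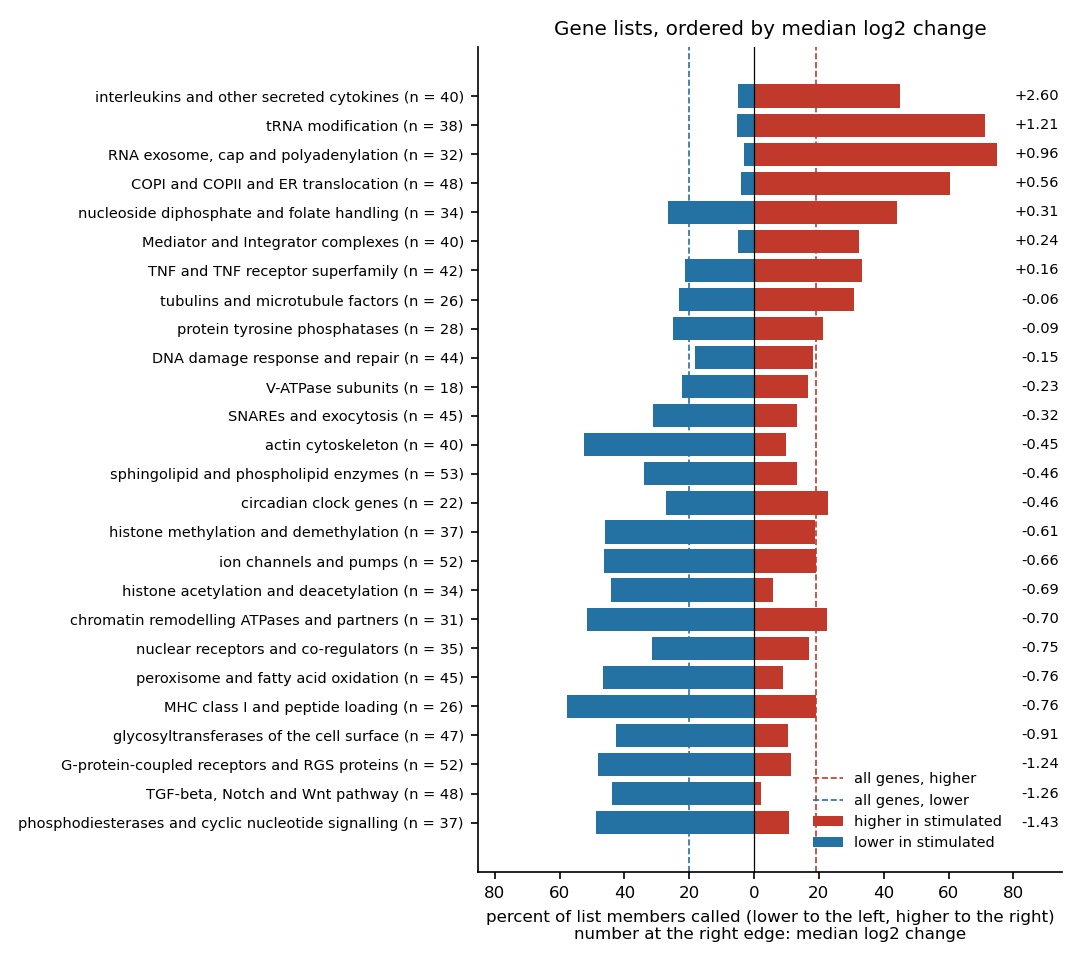
Percent of each list's tested genes called higher (red, to the right) and lower (blue, to the left) after stimulation, with the list's median log2 change at the right edge and the share of all genes called in each direction as dashed lines at 19.2% and 20.2%, all with composition scaling. The tRNA modification and RNA exosome lists pass 70% higher, while the MHC class I, actin and chromatin remodelling lists pass 50% lower.

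Lists in which falls outnumbered rises covered signalling from the surface. Of 37 phosphodiesterase and cyclic nucleotide genes, 4 rose and 18 fell (2 and 22 by totals), with a median of -1.43. Adcy7, an adenylate cyclase, fell from 55.3 ± 9.54 to 5.94 ± 4.22 CPM, Pde2a by 4.59, and Crem, a cyclic AMP-responsive transcription factor, rose by 2.1, with Prkar2a at 1.02. Of 52 G-protein-coupled receptors and RGS proteins, 6 rose and 25 fell (4 and 29 by totals), with a median of -1.24. F2rl1, a protease-activated receptor, fell by 3.07, and the RGS proteins Rgs16 and Rgs1, which end G-protein signals, rose by 4.41 and 2.91. Rgs16 was 7.33 CPM in naive 1 and at most 1.12 CPM in the other naive libraries. Of 48 genes of the TGF-beta, Notch and Wnt pathways, 1 rose and 21 fell (1 and 31 by totals), with a median of -1.26. Tgfbr2, the TGF-beta receptor, fell from 21.6 ± 4.23 to 2.39 ± 0.677 CPM and Smad7, its inhibitor, from 25.2 ± 3.50 to 2.84 ± 0.717 CPM, while Rbpj, the DNA-binding partner of Notch, rose from 9.14 ± 1.63 to 40.6 ± 10.4 CPM. Of 35 nuclear receptors and co-regulators, 6 rose and 11 fell (6 and 16 by totals). Nr4a3 rose by 3.36, and Tsc22d3, a glucocorticoid-induced leucine zipper protein, fell from 135 ± 12.99 to 10.4 ± 4.53 CPM. Thra, a thyroid hormone receptor, fell by 3.63. Of 52 ion channels and pumps, 10 rose, among them Kcnq5 (4.46) and the zinc importer Slc39a10 (2.43), and 24 fell, among them Slc9a9 (-4.11) and the calcium release channel Itpr3 (-3.59) (3 and 29 by totals).

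Chromatin genes fell more often than they rose, with exceptions that rose strongly. Of 31 chromatin remodelling genes, 7 rose and 16 fell (4 and 20 by totals). The paired ATPases Ruvbl2 and Ruvbl1 rose by 2.60 and 2.53, and Chd3 and Smarca2 fell by 2.60 and 2.43. Of 37 histone methylation genes, 7 rose and 17 fell (4 and 22 by totals). Prmt1, an arginine methyltransferase, rose from 106 ± 26.3 to 486 ± 33.2 CPM and Dot1l from 7.07 ± 0.983 to 18.9 ± 2.61 CPM. Kmt2a, the MLL1 methyltransferase, was at 29.0, 18.0, 28.3 and 22.3 CPM in the naive libraries, against 5.11, 3.12, 4.69 and 3.92 CPM in the stimulated ones, without overlap. Kmt2c fell by 2.39. Of 34 acetylation genes, 2 rose, Hdac2 (0.95) and Kat8 (0.89), and 15 fell, including Hdac5 (-2.16) and Hdac4 (-1.98) (0 and 23 by totals). The number of acetylation genes called higher was 1 without stimulated 1 or naive 2 and 4 without naive 1 or stimulated 3.

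Of 26 genes for MHC class I and peptide loading, 15 fell and 5 rose (2 and 16 by totals). Psmb8 and Psmb9 (-1.60), the peptide transporter subunit Tap2 (-2.05), its partner tapasin, Tapbp (-2.29), and the heavy chains H2-K1 (-1.25) and H2-D1 (-1.16) fell. Psme3, a nuclear proteasome activator, rose by 1.41 and the ER chaperone Canx by 0.97. Of 40 actin genes, 21 fell and 4 rose (0 and 28 by totals). Myo1f, an immune-cell myosin, was at 23.6, 22.5, 23.6 and 17.8 CPM in the naive libraries, against 0.722, 1.35, 0 and 0.499 CPM in the stimulated ones, and Dock2, which activates Rac, fell by 3.51. The rises of Dstn (0.75) and Actn4 (0.64) were small, their libraries overlapped, and only 1 actin gene was higher without naive 4, and 2 without naive 3, stimulated 1 or stimulated 4. Of 47 glycosyltransferases, 5 rose and 20 fell (2 and 27 by totals). The sialyltransferases St6gal1 (-3.57) and St6galnac3 (-4.70) fell, while St6galnac4 rose by 2.93 and Gnpnat1, of UDP-GlcNAc synthesis, by 2.98. Of 45 genes of peroxisomes and fatty acid oxidation, 4 rose, including Etfa (0.85), and 21 fell, including Cpt1a (-2.59) (0 and 28 by totals). Of 53 sphingolipid and phospholipid enzymes, 7 rose, among them Pla2g12a (2.84) and Agpat5 (1.84), and 18 fell, among them Cers4 (-2.33) (3 and 24 by totals). Of 45 SNARE and exocytosis genes, 6 rose and 14 fell (2 and 23 by totals). Exoc2, an exocyst subunit, rose from 31.6, 15.4, 7.02 and 6.85 CPM to 279, 291, 238 and 253 CPM, an increase of 4.12 on the log2 scale, and Rab37 fell from 23.3 ± 0.673 to 1.45 ± 0.456 CPM. Rab8b rose by 1.60 and Sytl1 fell by 3.60. Without number 1 or 3, 9 exocytosis genes were lower, and without number 4, 8 were. Without number 3, 3 MHC class I genes, 3 glycosyltransferases and 2 peroxisome genes were higher, and without number 4, 2 peroxisome genes were.

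Beyond chosen lists, all 254 groups of at least 8 tested genes sharing a symbol stem were counted. In 38 of them at least 50% of the members were higher, and in 25 at least 50% were lower. Each count of a stem stands against 19.2% higher and 20.2% lower of all genes. All 10 Utp genes, components of the small-subunit processome, were higher, with Utp20 at 2.06. Higher members numbered 7 of 8 for Psma proteasome subunits (Psma3, 1.84), 8 of 9 for Cops signalosome subunits, 12 of 14 for Psmd, 39 of 48 for Rpl, 37 of 49 for Mrpl, 11 of 15 for Timm and 19 of 28 for Polr, with Polr1b at 2.95 and Polr3g at 2.91. The largest Timm rise was Timm8a1, from 36.0 to 421 CPM. With library totals as the only scaling, higher members numbered 9 for Utp, 7 for Psma, 3 for Cops, 5 for Psmd, 26 for Rpl, 25 for Mrpl, 9 for Timm and 15 for Polr, and 1 Psmd and 7 Mrpl genes were lower. In the same proteasome, Psmb genes split, with 7 of 11 higher, including Psmb7 (1.63), and 3 lower (5 and 3 by totals).

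Stems that fell included Arid, with 9 of 10 lower (Arid1a, -1.59), Gimap, GTPases of lymphocyte survival, with 8 of 9 lower (Gimap4, from 341 to 49.1 CPM), and Parp, with 9 of 12 lower. Zkscan zinc finger genes were lower in 7 of 8, Kmt methyltransferases in 6 of 8 and Cbx chromobox genes in 5 of 8 (Cbx8, -3.48). Among 32 genes of the Arhgap stem, 17 were lower and none higher, and Arhgap45 fell from 175 to 13.6 CPM. The stem names GTPase-activating proteins but also took in the opposite-strand entry Arhgap27os1. Of 15 Pik genes, 9 were lower, led by Pik3ip1, an inhibitor of PI3 kinase, from 161 to 6.56 CPM. Of 12 Irf genes, 7 were lower, including Irf7 (-2.01), while Irf4 (4.20) and Irf8 (3.45) were the 2 that rose. Of 23 Phf genes, 14 were lower and 3 higher. The cell cycle inhibitors Cdkn1b (-3.81) and Cdkn2d (-2.66) were among 5 of 10 Cdkn genes that fell. Of 355 Zfp genes, 34 were higher (9.58%) and 108 lower (30.4%). Among all protein-coding genes at 1 to 10 CPM the shares were similar, at 12.0% and 34.3%.

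Protein-coding genes differed in direction by level. Of 178 genes above 1000 CPM on average, 71.3% were higher and 11.2% lower, with a median log2 change of 1.07. At 100 to 1000 CPM the shares were 54.0% and 22%, at 10 to 100 CPM 30.8% and 33.4%, and at 1 to 10 CPM 12.0% and 34.3%, with medians of 0.61, -0.06 and -0.58. Direction also went with length. Among protein-coding genes at 1 CPM or more, those with a main transcript under 500 nt had a median of 0.64 and those over 8000 nt a median of -0.80, of which 12.8% were higher and 53.0% lower. Within the 10 to 100 CPM class, the 4 classes from 500 to 8000 nt had medians between -0.13 and 0.02, the 33 genes under 500 nt a median of 0.44 (39.4% higher and 27.3% lower), and the genes over 8000 nt a median of -0.79. Because CPM grows with length and levels entered the classes, these are descriptions, and the part of RNA quality or library preparation was not tested.

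**Figure D4:**
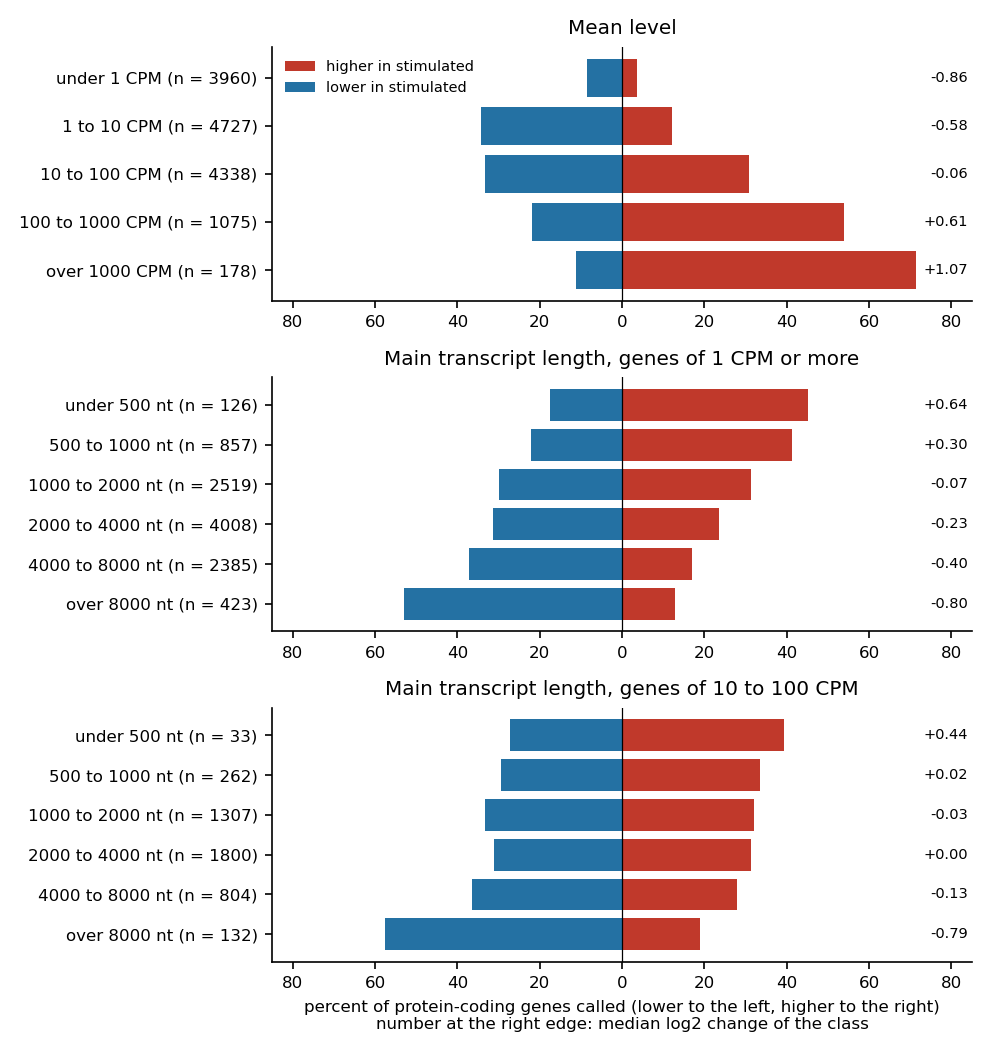
Percent of protein-coding genes called higher (red, right) and lower (blue, left) after stimulation in classes of mean level over the 8 libraries (top), of main transcript length for genes at 1 CPM or more (middle) and of length within 10 to 100 CPM (bottom), with each class's median log2 change at the right edge. The share called higher grows with level to 71.3%, and in the bottom panel the 4 classes between 500 and 8000 nt have medians from -0.13 to 0.02, with 0.44 below 500 nt and -0.79 above 8000 nt.

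Of 2700 long noncoding genes, 8.44% were higher and 17.6% lower. Of 3035 processed pseudogenes, 31.6% were higher and 3.82% lower, but reads of pseudogenes can be shared with their parent genes. Of 126 small nucleolar RNA genes, 66 were higher and 2 lower, and these lie inside host genes whose reads they share. In the libraries as a whole, genes at 1 CPM or more numbered 13020, 13040, 12720 and 13120 in naive and 11680, 11620, 10950 and 11710 in stimulated libraries. The groups did not overlap, and the exact two-sided permutation p was 0.0286, the smallest that 70 splits allow (0.0477 adjusted over 10 values). The share of counts in long noncoding genes fell from 1.82 ± 0.0665% to 1.19 ± 0.0266% and that in pseudogenes rose from 3.59 ± 0.269% to 4.32 ± 0.364%, with the same exact p. The share in the 100 most abundant genes was 36.8 ± 4.46% and 39.6 ± 2.75% (exact permutation p = 0.343). The effective number of genes was 1635 ± 365 and 1277 ± 180 (exact permutation p = 0.114). The mitochondrially encoded share was 2.13 ± 0.352% and 2.08 ± 0.478% (exact permutation p = 0.857) and the protein-coding share 89.2 ± 4.93% and 92.0 ± 1.25% (exact permutation p = 0.371). These tests take no account of the pairing, and 4 pairs allow no exact two-sided p below 0.125. The protein-coding share was higher in the stimulated library of all 4 numbers (92.19 to 93.18%, 91.89 to 92.16%, 90.71 to 92.35% and 81.82 to 90.23%), with the widest gap in number 4. Within numbers, the share of the 100 most abundant genes was higher in 3 of 4, the effective number lower in 3 and the mitochondrially encoded share lower in 2.

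At the transcript level, 5519 of 54864 transcripts were higher (10.1%) and 4954 lower (9.03%). Transcripts annotated as retaining an intron were higher in 4.84% and lower in 9.57%, with a median log2 change of -0.60, against 11.9%, 10.3% and -0.17 for protein-coding transcripts. Their share of all counts was 4.48, 4.6, 4.23 and 3.64% in naive and 3.17, 2.91, 2.92 and 2.76% in stimulated libraries. Every stimulated library lay below every naive one (exact permutation p = 0.0286). The share in transcripts annotated for nonsense-mediated decay fell from 1.97 ± 0.200% to 1.22 ± 0.0981%, and the count-weighted mean transcript length from 1598 ± 114 to 1388 ± 67.7 nt, with the same exact p. With totals as the only scaling 3121 transcripts were higher and 8042 lower.

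The balance between transcripts of a gene changed in 1142 of 4782 genes tested (23.9%), by limma on log2 ratios of a transcript to the rest of its gene. Of these genes, 501 were higher, 348 lower and 293 not called in total. In 183 genes, 1 transcript rose while another fell, and 56 of these genes were not called, and 692 uncalled genes had a called transcript. Transcript values are estimates from the authors' assembly of reads, so shares between overlapping transcripts carry that uncertainty.

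Psmb10, another inducible subunit of the immunoproteasome, fell by 0.52 as a gene, but its full-length coding transcript Psmb10-201 went from 93.8, 95.5, 95 and 93.5% of the gene to 55.0, 50.4, 37.1 and 42.8%. The retained-intron transcript Psmb10-205 went from 0.608, 0.344, 0.331 and 0.323% to 24.7, 30.5, 42.3 and 36.9%. Neither overlapped between the groups (usage adjusted p = 1.78e-05, limma). In CPM without composition scaling, the coding transcript went from 327 ± 71.0 to 79.8 ± 18.7 and the retained-intron transcript from 1.45 ± 0.798 to 57.1 ± 11.7. The gene's own call was lost when both libraries of number 1 or of number 2 were left out (adjusted p = 0.076 and 0.0613, edgeR).

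Fyb, an adaptor that links the T cell receptor to integrins, fell by 1.35 as a gene. Its coding transcript Fyb-201 went from 84.8, 86.8, 91.1 and 86.8% of the gene to 21.2, 7.55, 7.34 and 8.42%, and the short noncoding Fyb-206 of 569 nt from 6.93 ± 2.22% to 87.3 ± 7.58%. The coding transcript was lower by 4.21 on the log2 scale and the short one higher by 2.41. Arl5c, a small GTPase related to ARF, rose by 1.46 as a gene while its transcript Arl5c-201 of 1571 nt fell from 76.2 ± 13.3% to 1.15 ± 0.984% of the gene and the shorter Arl5c-202 of 823 nt took its place. In Ccm2, a scaffold of endothelial and MAP kinase signalling, Ccm2-203 held 17.5, 21.9, 24.9 and 22.5% in naive libraries and was listed at 0 in each stimulated library. Ankrd12-208, of an ankyrin repeat gene, rose from 3.65 ± 1.32% to 48.5 ± 5.05%, and Fxyd5-208, of a regulator of the sodium pump, from 6.04 ± 0.864% to 42.9 ± 3.12%. In Npm3, a nucleolar chaperone that rose by 3.43, the retained-intron share fell from 4.29 ± 0.0932% to 1.29 ± 0.152%. Pip4p1-205 rose from 89.9 ± 2.99% to 99.5 ± 0.156%, in a gene that overlaps Apex1 on the opposite strand. These 8 were the genes with the smallest p, from 1.78e-05 to 0.000124 after adjustment in limma.

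**Figure D5:**
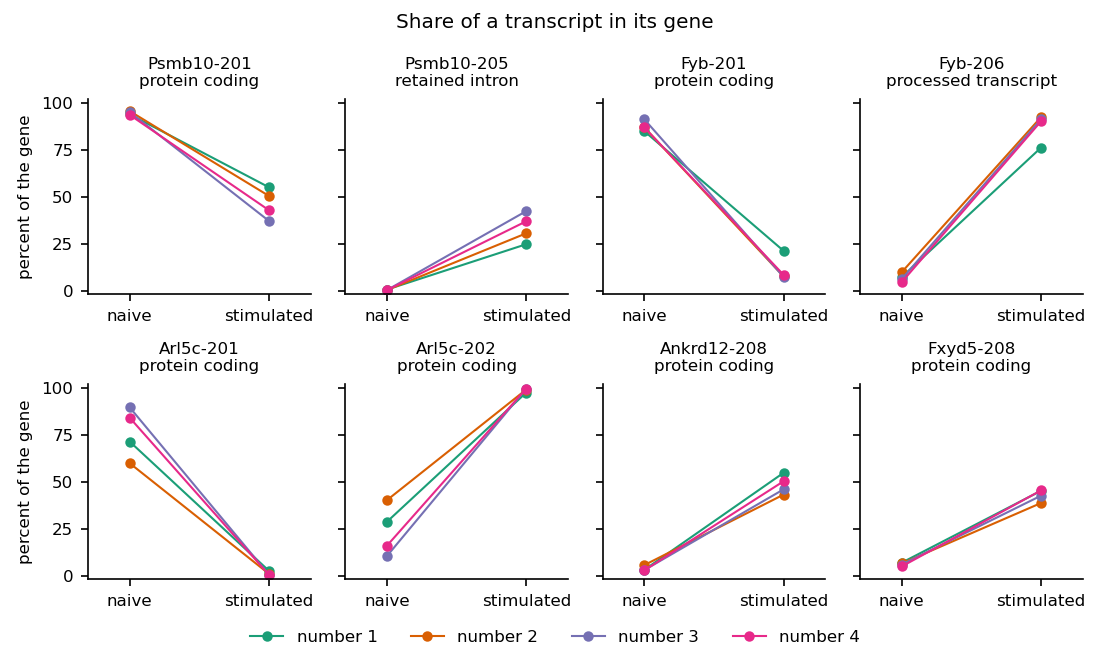
Percent of a gene's counts in each of 8 transcripts (vertical axis) in the naive and stimulated libraries, with lines joining libraries of the same number. Psmb10-201, Fyb-201 and Arl5c-201 lose share in all 4 numbers and Psmb10-205, Fyb-206, Arl5c-202, Ankrd12-208 and Fxyd5-208 gain it, and no naive library overlaps a stimulated one.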

How the data were processed

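Gene and transcript tables of estimated counts were deposited by the authors and hold whole numbers. Per the submitters' processing notes, the build was mm39 and the software included StringTie 2.1.0, STAR 2.7.1a, DESeq2 1.30.1, SAMtools 1.9 and R 4.0.5, with no roles given. RNA was prepared with a miRNeasy Micro kit and a SMARTer ultra-low poly(A) kit, per the labels. Unused sample columns numbered 0. The tables held 55414 genes and 142435 transcripts. Names came from GENCODE M21 by identifier without version (94.1% of genes and 97.1% of transcripts matched). That annotation is on GRCm38, so coordinates are printed only for RefSeq promoter windows of GRCm38.p6.

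Libraries were grouped by labelled treatment. The quasi-likelihood F test of edgeR 4.0.16 (R 4.3.3) was applied to the gene and the transcript counts as deposited, with TMM scaling, group means of all 11 libraries, filterByExpr (minimum count 10) and Benjamini-Hochberg adjustment at 0.05. TMM factors ran from 1.13 to 1.35 in naive and from 0.727 to 0.963 in stimulated libraries, and the common biological coefficient of variation was 0.791. Usage was tested with limma 3.58.1 on log2 ratios with a prior of 0.5 CPM, over transcripts of at least 1 CPM, combined per gene by Simes. Values of whole libraries were compared by an exact two-sided permutation test. Replicate numbers were taken as pairs because each of the 4 correlations of deviations was above 0.1. The labels do not say what the numbers mark.

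Named genes followed a rule: the 12 largest changes each way at 10 CPM or more without overlap, the 10 largest gains and losses of CPM, the 10 smallest p each way at 2-fold or more, genes off in 1 group, the 2 largest called changes each way per list at 5 CPM or more, the 3 largest per symbol family and the 8 smallest usage p. Predicted genes and receptor segments were left out, and a few genes the rule named are not reported here. Members of the MHC class I, CD8, CD4, proteasome and import sets named beside these were chosen after their values were seen. The comparison, members and lists were chosen with earlier results of these data known. Alternatives were DESeq2 1.42.0, library totals, other filters, the replicate block, other priors, the 8 libraries alone and leaving out libraries. The gene test and the test of transcript usage were run on simulated data with known changes. The other steps were not.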

Additional observations from a re-analysis of the deposited data

Results flagged for a closer look

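In 28 of 180 groups of 4 values examined, 1 library lay apart from the other 3 by Dixon's criterion. A chance rate of about 1 in 20 holds for independent normal values. Levels were not on a log scale here and some items share genes, so the count cannot be set against that rate. In number 4, the B cell marker sum was 48100 CPM in naive 4 (next highest 371) and 14500 CPM in stimulated 4 (118), the protein-coding share was 81.8% in naive 4 (90.7% in the nearest) and Slpi was 1420 CPM in stimulated 4 (181). In number 2, the granulocyte sum reached 8680 CPM in naive 2 (191) and, for stimulated 2, 2080 CPM (42.4), and the monocyte sum 2180 CPM (230) and 98.1 CPM (24.4). Naive 2 was also apart for Lyz1 at 55.4 CPM (5.55), Lyz2 at 1770 CPM (176), Ftl1 at 18500 CPM (8330), Fth1 at 7180 CPM (1930) and Ankrd12-208 at 5.63% of its gene (3.12%). Lif was 16.8 CPM in stimulated 2 (10.7).

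Stimulated 1 kept more RNA of several genes that fell than the other stimulated libraries did: Cd7 at 25.2 CPM (1.37), Ifngas1 at 1.63 CPM (0.25), Ifitm10 at 2.84 CPM (0.444), Fxyd7 at 3.68 CPM (0.368) and Lrrc6 at 1.15 CPM (0). It was also apart for Fyb-206 at 76.0% (90.0%) and Ccm2-201 at 99.3% (99.9%). Without stimulated 1 the log2 change of Cd7 was -8.99 in place of -6.11. In the same number, naive 1 was the highest naive library for genes that rose, such as Ccl4 at 1801 CPM (1105), Xcl1 at 871 CPM (395) and Il2ra at 19.8 CPM (8.19). Not all did so, as Ncs1 was highest in naive 2 at 0.649 CPM (0.511). Within number 1 the log2 change was 3.62 for Ccl4 and -3.61 for Cd7. In numbers 2 to 4 it was 4.0, 9.1 and 7.8 for Ccl4 and -8.5, -8.2 and -8.8 for Cd7. In naive 1, Slc7a3 was 2.42 CPM (0.361), Slc7a5 11.7 CPM (8.39) and Psmb10-205 0.608% (0.344%). In number 3, Khk was 36.6 CPM (28.6) and Nsd3 62.5 CPM (47.0) in naive 3, and in stimulated 3 Eif5a was 6460 CPM (5960) and the genes at 1 CPM or more numbered 11000 (11600). The causes were not tested.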

How the results depend on the processing

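With the replicate number as a block, 4378 genes were higher and 4785 lower and 945 genes changed usage. Of 184 named genes, 183 kept their direction and side of the threshold and Slpi became called. DESeq2 called 4783 higher and 5180 lower and changed none of the 180 named genes it could test. With library totals as the only scaling, 2600 genes were higher (4272 in the main fit), and 3121 transcripts were higher and 8042 lower (5519 and 4954). These counts moved with the scaling itself. Of the 184 named genes, 9 lost their call with totals, and Tmsb4x and B2m became called. Among those that lost it were Cd40lg, Prkar2a, Etfa, Hdac2, Kat8, Dstn, Actn4 and Pip4p1, all called higher in the main fit. A mean of at least 5 CPM left 8550 genes, 2776 of them higher, and at least 5 CPM per transcript left 2022 genes for usage, 536 of them called. Both had fewer genes tested. Without a filter the counts were 3742 and 4021. Leaving out single libraries gave 3877 to 4271 higher and 3774 to 4195 lower genes, and 877 to 1003 usage genes. The number of usage genes, 1142 in the main fit, moved more with the prior. With a prior of 2 CPM it was 1656, of which 1063 were shared with the main fit. With 0.1 CPM it was 1012, of which 936 were shared. Leaving out single libraries, 3 to 8 of the 184 named genes lost their call, and leaving out both of a number 10 to 13 did. B2m was called neither in the main fit nor without replicate 4. Its log2 change, -0.17 in the main fit, ran from -0.28 to 0.04 when libraries were left out. It reversed only without replicate 4, and the cause was not tested. Protein-coding genes under 1 CPM were called least often (3.69% higher and 8.61% lower of 3960, against 30.8% and 33.4% at 10 to 100 CPM). Differences in such genes may have been missed, and the cause of the low share was not tested.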
